A study of Homo sapiens with 5 samples.

Results

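The 341 ATAC peaks around MYC on the long arm of human chromosome 8 (8q24) were examined, out of 158342 peaks in the 80% matrix and 7376 on this chromosome. A peak was a member when it lay on chromosome 8 (GRCh38) with its start from 126000001 to 130000000, a window of 4 Mb set by coordinates after earlier results of these counts had shown high values there. The levels of these peaks in the nuclei therefore carry no test and are given as a description. Its coordinate limits were not steps in level in the nuclei of sub-cluster 3b described below. There the last peak short of the window was at 1.03 CPM (counts per 1000000 ATAC counts of the group) and the first member at 0.51. The last member was at 5.13 CPM and the first peak beyond at 6.93. In cluster 4 the same peaks were at 5.14 and 0 CPM, and at 47.0 and 11.1 CPM. The question was whether accessibility was higher over every peak of the segment in some nuclei, and where it ended. In short, it was not higher over every peak: in 363 nuclei all 107 peaks of a stretch of 652 kb around MYC and PVT1 were above the mean of the other clusters, by 15.6-fold in sum, whereas the 130 peaks beyond it were at 0.52-fold, and the stretch ended at the same peak in a second, less strongly raised set of 471 nuclei. Where the stretch began in the 363 nuclei differed with the reference and with the way it was found. Against the mean of the other clusters, a division into steps of equal ratio began it at 127618071. With pieces of under 5 peaks passed over, the raised stretch began at 127074533, and with 250 kb bins at 127000001. In a separate library the division began it at 127080509. The length of 652 kb thus rests on the division with no piece passed over.

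MYC encodes a transcription factor that pairs with MAX to bind DNA and drives genes of growth and metabolism. It lies in a region with few protein-coding genes, where PVT1, a long non-coding RNA gene that also hosts several microRNAs, follows it and long non-coding RNA genes such as PCAT1, CASC19 and CASC8 precede it. The region holds many distal regulatory elements and is often gained or amplified in cancers, lung adenocarcinoma among them. In an ATAC library the Tn5 transposase inserts adapters into open chromatin, so a peak count grows with the openness of a site and also with the number of DNA copies that carry it. In these counts the openness of each copy and the number of copies cannot be told apart.

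The nuclei came from a mixture of A549, H1975, H2228, H838 and HCC827, human lung adenocarcinoma lines, which had been grown apart without any treatment or genetic change named in the labels. RNA and ATAC were read from the same nuclei, and the barcoded droplets were divided into portions of 80% and 20%, each with 1 RNA and 1 ATAC library. The 80% matrix held 6557 barcodes, and the 20% matrix, which served as a separate library, held 1286. With 1 library of each kind per portion no difference was tested and no p-value is given, and the exact 95% intervals below cover counting error only.

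Nuclei were grouped by RNA alone, with every gene of chromosome 8 left out so that the grouping used no value from the segment. This gave 5 clusters, numbered 0 to 4, with 2469, 1458, 1451, 841 and 338 nuclei. Cluster 3 held a pair of RNA groups, which separated at the next resolution into sub-clusters 3a, with 471 nuclei, and 3b, with 363, and 7 nuclei were in neither. This division was made after the values of cluster 3 had been seen. Median ATAC counts per nucleus were between 6516 and 11589 over the clusters, and between 0.62% and 12.5% of their nuclei were called as doublets. No cell line name was given to a cluster, and with 3a and 3b apart there were more RNA groups than lines in the mixture. The keratin genes KRT8, KRT18 and KRT19 were above 105 RNA CPM (UMIs per 1000000 UMIs of the group) in every cluster, while the epithelial adhesion genes EPCAM and CDH1 were at 681 and 194 RNA CPM in 3a but at 37.2 and 7.72 in 3b. EPCAM was at 112, 42.4, 23.5 and 760 in clusters 0, 1, 2 and 4, and CDH1 at 11.8, 46.2, 4.71 and 200. Cluster 2 was thus lower than 3b in both. Of the genes that carcinoma lines should lack, PTPRC, CD3E and CDH5 were at most 1.41 RNA CPM and PECAM1 at most 14.6, in 3b. Sub-cluster 3a was marked by AL356804.1, at 84.5 RNA CPM, and 3b by TAGLN and MGP, at 245 and 136. Cluster 0 was marked by MEG3 and MEG8, at 307 and 282, cluster 1 by ALDH1A1 and TM4SF4, at 5377 and 509, cluster 2 by LINC02055, at 292, and cluster 4 by EGFR, at 7247 RNA CPM.

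Summed over all 341 peaks, the segment held 2147 CPM in cluster 0 (interval 2124 to 2171), 2023 in cluster 1 (1987 to 2059) and 1544 in cluster 2 (1510 to 1579). It held 11192 CPM in cluster 3 (11102 to 11282) and 4592 in cluster 4 (4499 to 4686). Within cluster 3 the level was 5761 CPM in 3a (5679 to 5844) and 20097 in 3b (19901 to 20294), so that 2.01% of all ATAC counts of 3b lay in this window. The order of the clusters was thus 3b, 3a, 4, 0, 1 and 2, and no neighbours in it had overlapping intervals. Against the mean of the other clusters the ratio was 4.34-fold in cluster 3 (2.12 on the log2 scale), 2.24-fold in 3a and 7.80-fold in 3b. For cluster 4 that mean includes the high cluster 3 and the ratio was 1.09-fold, whereas against the median of the other clusters it was 2.20-fold. The median is therefore used for cluster 4 from here on.

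The ratio did not extend to all members. In 3b 145 of the 341 peaks, or 42.5%, were past 2-fold above the other clusters, beside 10.6% of all peaks of the matrix, and 77 were past 2-fold below, or 22.6%, beside 16.5%. For this count 1 CPM was added to both levels. In 3a 91 peaks were past 2-fold above, or 26.7%, beside 10.5% of all peaks, and 62 past 2-fold below, or 18.2%, beside 11.7%. In cluster 3 as a whole the counts were 127 above, or 37.2% (9.69% of all peaks), and 51 below, or 15.0% (9.40% of all peaks). Cluster 4 had 131 peaks past 2-fold above its median reference, or 38.4%, beside 11.1% of all peaks, and 21 below, or 6.16%, beside 9.84%. Against the median of the other clusters fewer members were below. In 3b 157 were then above and 46 below, beside 13.8% and 10.6% of all peaks, in 3a 107 and 41, beside 14.0% and 6.65%, and in cluster 3 151 and 27, beside 13.6% and 4.96%. These counts follow from the contrast by which the window was picked. The median member was at 0.25 on the log2 scale in 3b and at -0.01 in 3a, near the medians of all peaks of -0.18 and -0.11, so the ratio of the sum came from part of the members.

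A least-squares division of chromosome 8 into steps of equal log2 ratio was used to find where the levels moved. In 3b it set off a stretch of 107 members from chr8:127618071 to 128270054, at -117.4 to 534.6 kb from the MYC start at 127735434, which is called the core here. It also set off 47 members before the core, from chr8:127074533 to 127596818, called the shoulder. The remaining 57 members before the shoulder and the 130 after the core are described beside them. The core covers 16.3% of the window and 31.4% of its peaks. Because the core was defined by the values of 3b, its high level there is part of its definition.

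**Figure D1:**
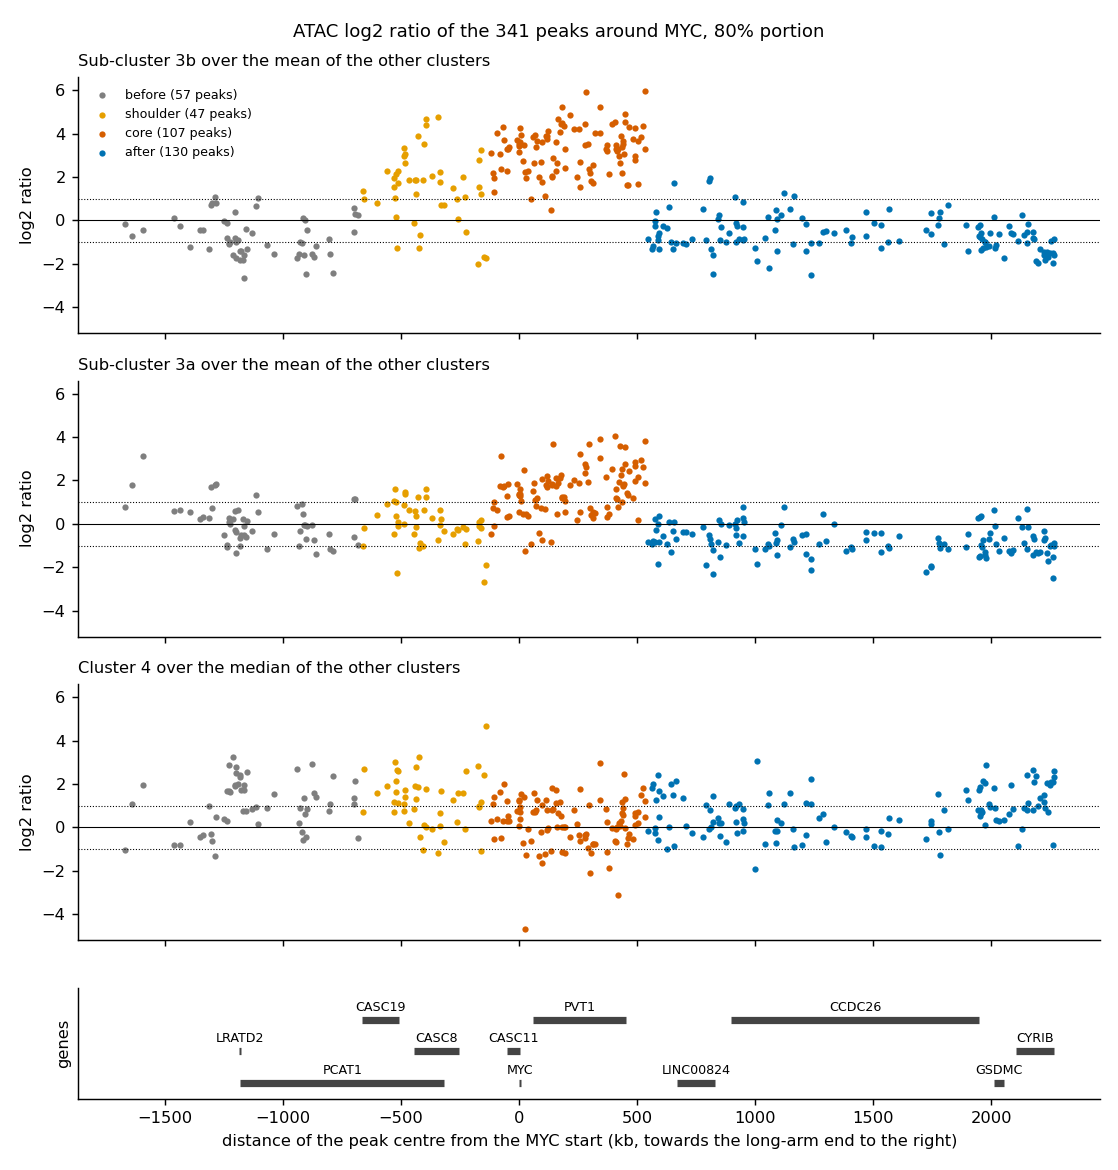
ATAC log2 ratio of each of the 341 peaks in the 80% portion against the distance of its centre from the MYC start in kb, for 3b and 3a over the mean and for cluster 4 over the median of the other clusters, with 1 CPM added to each level. Colours mark the 57 peaks before, 47 of the shoulder, 107 of the core and 130 after it, dotted lines mark 2-fold and bars at the bottom are genes. In 3b all core peaks are above 0, and the peaks to the right of 534.6 kb drop at once, in 3a as in 3b.

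In the core, summed levels were 1116, 980, 787 and 1791 CPM in clusters 0, 1, 2 and 4, against 4597 in 3a and 18236 in 3b. This was 15.6-fold above the mean of the other clusters in 3b and 3.93-fold in 3a. In 3b all 107 peaks were higher than the mean of the other clusters, 106 were higher than in each of them and 105 were past 2-fold, beside 10.6% of all peaks. The median log2 ratio was 3.38, with a range from 0.45 to 5.98. The 2 that stayed under 2-fold, with 1 CPM added to both levels, were named after their values were seen. They lay in PVT1 at chr8:127870336-127871216, with 19.8 CPM in 3b beside 14.2 in the other clusters, and before PVT1 at chr8:127786751-127787587, with 3.85 beside 1.48 CPM. The second was under 2-fold only through the added 1 CPM. In 3a 75 of the core peaks were past 2-fold above and 1 was past 2-fold below, beside 10.5% and 11.7% of all peaks. The core held 52.0%, 48.4%, 51.0% and 39.0% of the segment counts of clusters 0, 1, 2 and 4, against 79.8% in 3a and 90.7% in 3b.

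The order of height of the core peaks was shared in part between clusters. Over its 107 peaks the level in 3b followed the mean level of the other clusters with a Spearman correlation of 0.82, and that in 3a with 0.81, a description across peaks of the same libraries. With clusters 0, 1, 2 and 4 taken singly the correlation was from 0.71 to 0.77 for 3b and from 0.56 to 0.84 for 3a. Between pairs of clusters 0, 1, 2 and 4 it was from 0.58 to 0.76. With the core peaks divided in 3 sets by their level in the other clusters, the summed ratio in 3b was 15.0-fold in the 36 lowest, 17.1-fold in the 35 in the middle and 15.5-fold in the 36 highest peaks. The values by kind of site were also near each other. The median log2 ratio in 3b was 3.52 for the 13 core peaks within 1000 bp of a gene start, 3.75 for the 17 in exons, 3.38 for the 53 in introns and 3.01 for the 24 between genes. Low and high peaks, and gene starts and intergenic sites, were thus all above the other clusters in 3b. That each set is high was part of the definition, since the core was set by the ratio in 3b. Peaks were also called over all nuclei together, and 41.2% of the counts of the median core peak came from 3b. Evenness over the sets was not tested.

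The peak with the most counts of the segment, 13258 over all nuclei, lies in an intron of PVT1 at chr8:128176523-128177425. Its level was 97.2, 108, 68.3 and 189 CPM in clusters 0, 1, 2 and 4, 406 in 3a and 1352 in 3b. Within 1000 bp of the start of MYC lay 3 peaks, of which only that at chr8:127734948-127735599 held the start itself. The one with the most counts, at chr8:127735751-127736595, was at 39.3, 54.4, 31.8 and 114 CPM in clusters 0, 1, 2 and 4, at 155 in 3a and at 543 in 3b, a log2 ratio of 1.36 and 3.16. The smaller peaks at chr8:127733713-127734554 and chr8:127734948-127735599 had log2 ratios of 3.42 and 3.52 in 3b and of 1.34 and 0.56 in 3a. At the start of PVT1, at chr8:127793989-127794905, the level was 19.9, 27.7, 21.8 and 40.6 CPM in clusters 0, 1, 2 and 4, 81.3 in 3a and 401 in 3b. At all of these sites 3b was highest and 3a second, and cluster 4 was nearer to 0, 1 and 2 than 3b was.

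The highest ratio in 3b was at an intergenic peak at chr8:128267099-128268016, 532.1 kb from the MYC start and the last but 1 of the core. Its level was 5.91, 0.80, 1.07 and 9.51 CPM in clusters 0, 1, 2 and 4, 74.8 in 3a and 335 in 3b, a log2 ratio of 3.83 and 5.98. In PVT1 introns, the peak at chr8:128018492-128019370 was at 275 CPM in 3b beside 3.64 in the mean of the others (5.89 on the log2 scale), and the peak at chr8:128076461-128077377 at 830 beside 21.1 (5.23). The second of these was also among the highest of 3a, at 335 CPM (3.93), and was raised in cluster 4, at 63.8 CPM (2.96). Near the start of LINC02912, a long non-coding RNA gene inside the PVT1 interval, the peak at chr8:127949428-127950437 reached 1234 CPM in 3b and 146 in 3a, beside 41.9 in the mean of the others.

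The far end of the core was sharp and was shared. The last core peak, at chr8:128269215-128270054, was at 3.88, 1.77, 1.81 and 4.37 CPM in clusters 0, 1, 2 and 4, at 13.5 in 3a and at 37.7 in 3b. The next peak, 12.96 kb farther at chr8:128283013-128283865, had 0 counts in 3a and in 3b, which allows up to 3 counts in each, beside 1.24, 0.35, 1.07 and 0.51 CPM in clusters 0, 1, 2 and 4. The step ended at 128270054 in 3a, in 3b and in cluster 3 as a whole. No annotated gene lies across this point, and the PVT1 gene ends 83.0 kb before it. With 250 kb bins and 2-fold as the limit, the stretch reached 128500000 in all of these groups, which is the edge of the bin that holds the step.

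**Figure D2:**
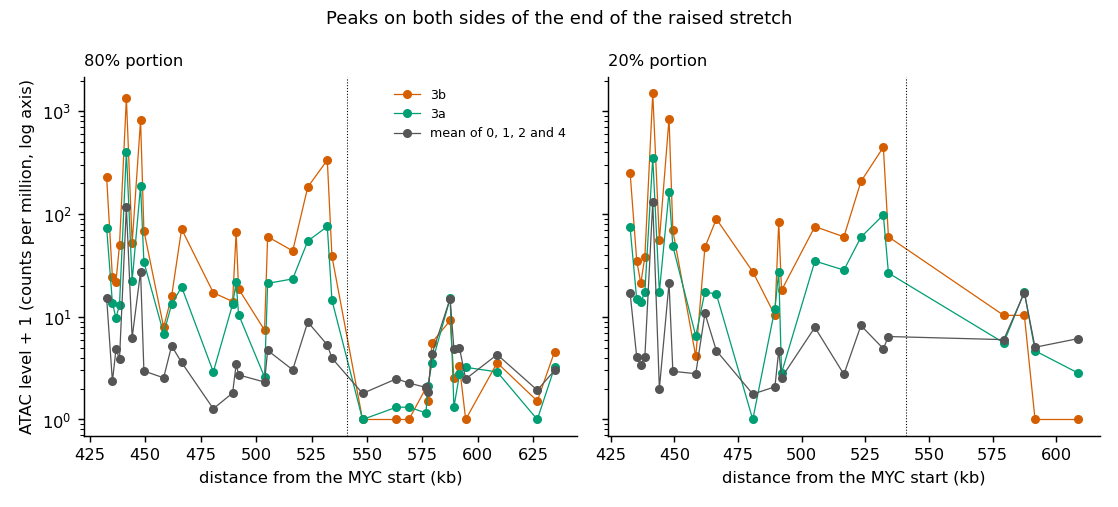
ATAC level plus 1, in CPM on a log axis, of each peak between 430 and 640 kb from the MYC start, for 3b, 3a and the mean of clusters 0, 1, 2 and 4, in the 80% and the 20% portion. The dotted line lies between the last core peak and the next peak. Left of it 3b is above 3a and 3a above the mean in nearly all peaks, and right of it the lines cross.

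Beyond the core, the 130 members were lower in sum in 3a and 3b than elsewhere, though 20 of them in 3a and 26 in 3b were above the mean of the other clusters. Their summed level was 531, 487, 442 and 1112 CPM in clusters 0, 1, 2 and 4, 283 in 3a and 335 in 3b, so that both sub-clusters were below each of the other clusters. In 3b 6 of these peaks were past 2-fold above and 45 past 2-fold below, beside 10.6% and 16.5% of all peaks, and in 3a none was above and 47 were below, beside 10.5% and 11.7%. The mean of the other clusters is raised here by cluster 4, and against their median 28 were below in 3b, at 0.66-fold in sum, and 33 in 3a, at 0.56-fold. Over all peaks the shares below the median were 10.6% in 3b and 6.65% in 3a. The lowest ratio with 10 or more expected counts in cluster 3 was in an intron of CCDC26, a long non-coding RNA gene, at chr8:128972192-128973069. Its level was 0.32 CPM in 3a, with no count in 3b, beside 3.09, 0.35, 4.06 and 11.8 CPM in clusters 0, 1, 2 and 4, so cluster 1 was about as low as 3a. The low level went on past the window: the step after the core ran to 136932453 in 3b, with a summed ratio of -0.95 on the log2 scale, and to 137335354 in 3a, with -1.12. Over the 5 Mb that follow the window the log2 ratio was -0.91 in 3b, -1.12 in 3a and 0.95 in cluster 4.

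The near end differed between the sub-clusters. In 3a the core began at 127625027, 1 peak later than in 3b, and the 47 shoulder peaks summed to 1.14-fold. Of these, 8 (17.0%) were past 2-fold above and 6 (12.8%) past 2-fold below in 3a, beside 10.5% and 11.7% of all peaks. In 3b the shoulder summed to 4.19-fold, at 1247 CPM against 134, 290, 89.1 and 677 CPM in clusters 0, 1, 2 and 4. There 32 of its 47 peaks were past 2-fold above, beside 10.6% of all peaks. Against the median the shoulder of 3b was at 5.88-fold, with 38 peaks past 2-fold above, beside 13.8% of all peaks. It was not even: 5 peaks from chr8:127331804 to 127391925, near POU5F1B and CASC8, were at 31.6-fold, and the peaks on either side at 3.81-fold and 3.09-fold. The last 2 peaks of the shoulder, at chr8:127585827 to 127596818, were at 0.26-fold of the mean. Cluster 1 raised that mean most at the first of them and cluster 4 at the second. The first was at 3.85 CPM in 3b, beside 2.44, 37.6, 1.07 and 17.0 in clusters 0, 1, 2 and 4. The second was at 3.59 CPM in 3b, beside 0.89, 1.51, 0 and 55.8. Against the median of the other clusters the stretch of 3b had no such break and began at 127074533. The break before the core in 3b thus rests on these 2 peaks, and with pieces of under 5 peaks passed over the raised stretch of 3b began at 127074533. In simulated data an even stretch could also be broken by a few low peaks. That simulation used the rates of cluster 0 for every cluster and held no peaks high in another cluster. It therefore cannot tell whether the break seen here is of that kind. The peaks before the shoulder held 279 CPM in 3b and 541 in 3a, beside 367, 265, 226 and 1011 in clusters 0, 1, 2 and 4. The ratio to the mean was thus 0.60-fold in 3b, through the high level of cluster 4, while 3b lay within the range of clusters 0, 1 and 2. Among them the start of LRATD2, a protein-coding gene, at chr8:126558030-126558871, was at 25.2 CPM in 3b and 48.1 in 3a, beside 46.2, 58.5, 26.8 and 144 in clusters 0, 1, 2 and 4. Counted in 250 kb bins, the stretch of 3b ran over 1500 kb from 127000001, that of cluster 3 from 127250001 and that of 3a from 127500001.

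Cluster 4 had another profile, without the core. Its summed ratio was 3.20-fold before the shoulder, 3.19-fold in the shoulder, 1.71-fold in the core and 2.39-fold after it. The steps in cluster 4 were 3.59-fold from chr8:126500729 to 127312340, a stretch that holds LRATD2, CASC19 and most of PCAT1, 2.11-fold from there to 127756405, just past MYC, and 1.64-fold over PVT1 and on to 129552697. Between the last of these steps 1 core peak, at chr8:127760487-127761329, had 0 counts in cluster 4, which allows up to 3 counts, beside a median of 24.8 CPM in the other clusters. The steps were high again from 129626863, inside the window, with 2.46-fold up to 132194650. Beyond the window they were at 6.66-fold from 132215251 to 132652072. In the core 27 of the 107 peaks were past 2-fold above in cluster 4 and 13 past 2-fold below, beside 11.1% and 9.84% of all peaks. At the LRATD2 start cluster 4 had a log2 ratio of 1.72, and at the peak with the most counts in a PVT1 intron 0.88.

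**Figure D3:**
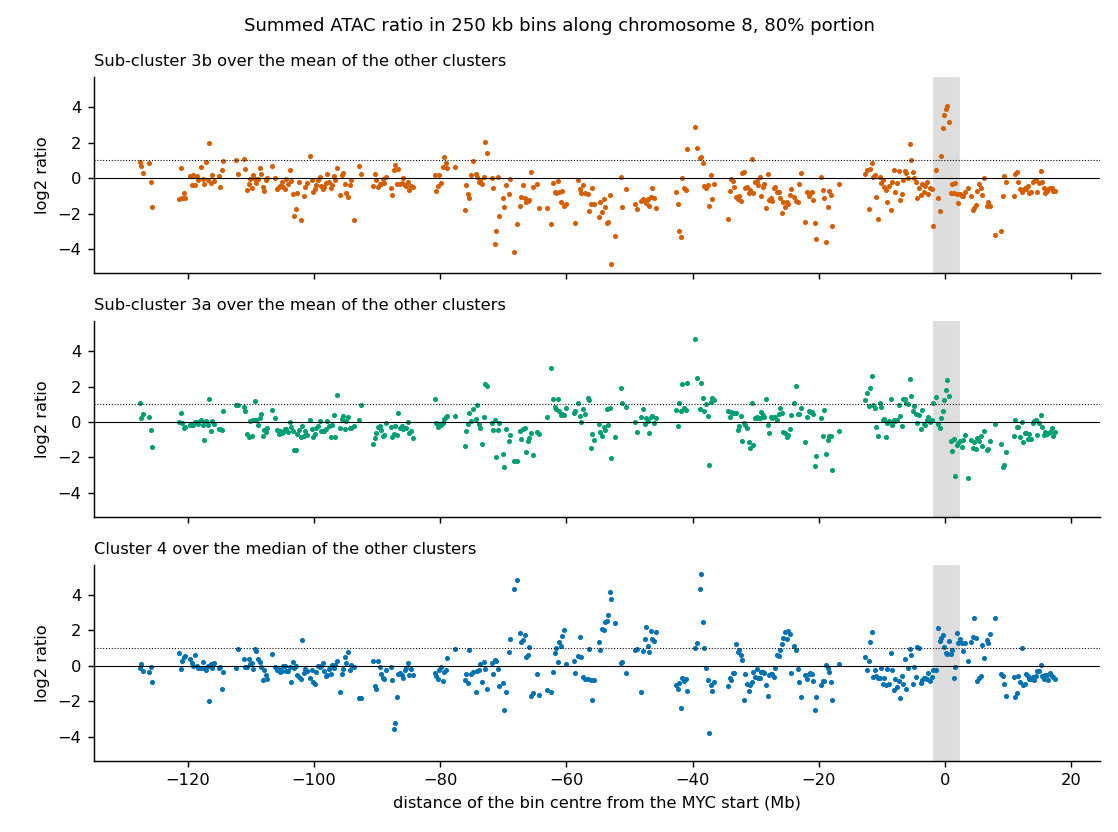
Summed ATAC log2 ratio in 250 kb bins with 5 or more peaks along chromosome 8, in the 80% portion, against the distance of the bin centre from the MYC start in Mb. The grey band is the 4 Mb window and the dotted line is 2-fold. In 3b the highest bins of the chromosome lie in the core, at up to 16.9-fold, 3a has lower values there and low values to the right, and cluster 4 has several high groups of bins along the long arm.

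On the scale of the genome, 7.09% of 8181 bins of 250 kb were past 2-fold above in 3b, 6.77% in 3a, 5.92% in cluster 3 as a whole and 6.47% in cluster 4. In 3b the 3 bins that start at 128000001, 127750001 and 127500001 held 41, 41 and 30 peaks and were at 16.9-fold, 15.1-fold and 11.7-fold, ranks 5, 6 and 10. The 9 other bins of the first 12 held 5 to 21 peaks each. In 3a no bin of the segment was among the first 12. The segment also held more peaks than the chromosome around it, 85.2 per Mb against 49.9 on the rest of chromosome 8, with 164 per Mb in the core and 75.7 beyond it. Peaks had been called over the nuclei of all lines together, and in the median core peak 41.2% of the counts came from 3b, which holds 5.54% of the nuclei, so the part of 3b in the peak density was not tested.

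Single nuclei were compared after each had been thinned to 4000 ATAC counts, which left out 41 nuclei of 3a and 26 of 3b with fewer. The segment then held a median of 8 counts in cluster 0 (quartiles 6 to 11), 7 in cluster 1, 6 in cluster 2 and 18 in cluster 4 (14 to 22). In 3a the median was 21 (15.2 to 27) and in 3b it was 74 (45 to 108), with a highest nucleus at 419. Of the nuclei of 3b, 332 of 337 were over 17 counts, the 95th percentile of the other clusters, which is 98.5% (exact interval 96.6 to 99.5), and 277 of 430 in 3a, or 64.4% (59.7 to 68.9). In cluster 4, whose nuclei are among those that set this limit, 156 of 292 were also over it, or 53.4% (47.5 to 59.3), and in clusters 0, 1 and 2 at most 2.04%. Before thinning, a median of 1.80% of the counts of a 3b nucleus lay in the segment and 0.51% in 3a, against 0.20% in cluster 0.

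The nuclei of 3b differed among themselves by more than counting error. On fragments thinned to 2000 per nucleus, the segment's coefficient of variation beyond counting error was 60.4% in 3b, while the other 4 Mb windows of the genome with 5 or more fragments had a median of 14.7% and a highest value of 32.2%, with 0 of 109 at or above the segment. In 3a it was 49.8%, with 2 of 109 windows at or above it, both on chromosome 11, and in cluster 4 it was 21.1%, with 30 of 105 at or above it. Without nuclei called as doublets the values were 58.6%, 49.9% and 20.8%. In clusters 0, 1 and 2 it was 25.2%, 24.5% and 31.9%, with 0 of 104, 0 of 104 and 2 of 106 windows at or above it. Without doublet calls it was 17.4%, 21.4% and 25.3% there, with 3 of 104, 0 of 105 and 2 of 106 windows at or above it. The segment held a mean of only 4.20, 3.93 and 3.05 fragments per nucleus in these clusters, under the limit of 5 set for the other windows. Its rank among those windows is therefore not a like comparison there. The spread was thus largest in 3b and 3a. Whether a spread above nearly all other windows was particular to nuclei with a raised core cannot be told from these ranks. In cluster 4 the spread was within the range of the other windows.

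**Figure D4:**
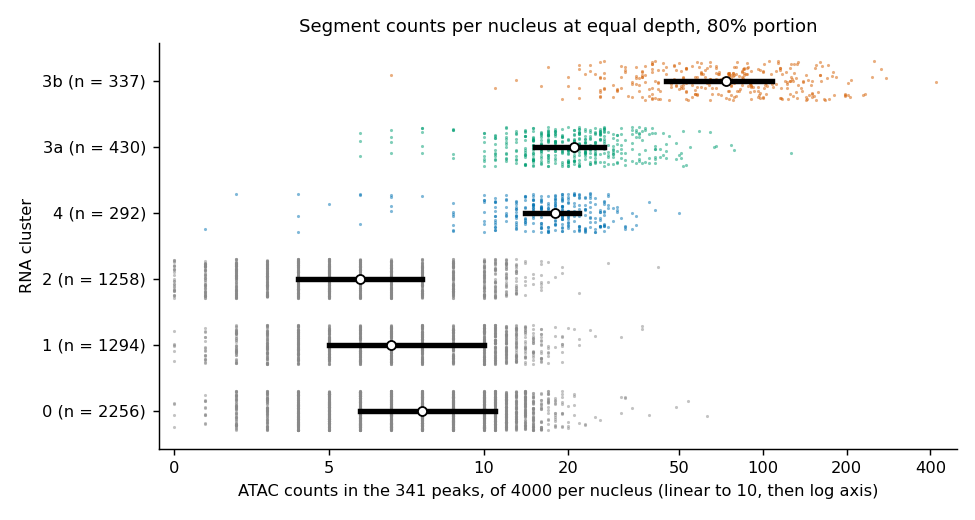
ATAC counts in the 341 peaks of each nucleus thinned to 4000 counts, by RNA cluster, in the 80% portion, on an axis that is linear to 10 and logarithmic above. Points are nuclei, circles medians and bars quartiles, and the nuclei of 3b spread from 7 to 419 counts around a median of 74.

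Within 3b both sides of the core went together. The share of counts in core peaks left of the MYC start and that to its right had a Spearman correlation of 0.83 over 337 nuclei, both relative to the counts outside the segment, while in 3a it was 0.28 over 430 nuclei, in cluster 4 it was 0.01 and in cluster 0 it was 0.03. The core share had a correlation of -0.08 with total ATAC counts in 3b and 0.07 in 3a, and without doublet calls of 0.032 and 0.19. With RNA from the same nucleus the values were higher. The share of UMIs on PVT1 had a correlation of 0.84 with the core share in 3b and 0.52 in 3a, against 0.23 in cluster 4 and 0.05 in cluster 0, and that on MYC 0.43 in 3b and 0.37 in 3a. These correlations describe nuclei of 1 pair of libraries. Counting error lowers a correlation where counts are few. At equal depth the segment held a median of 74 counts per nucleus in 3b, 21 in 3a, 18 in cluster 4 and 8 in cluster 0. The lower values outside 3b therefore do not show that the parts went together less there. Without doublet calls the correlations with RNA were 0.84 in 3b and 0.53 in 3a for PVT1 and 0.42 and 0.36 for MYC.

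The RNA of MYC, PVT1 and CASC11 was highest in 3b, but the order of the other clusters was not the same as for the core peaks. MYC was at 112, 115, 35.3 and 403 RNA CPM in clusters 0, 1, 2 and 4, at 284 in 3a and at 819 in 3b. This is a log2 ratio of 0.77 in 3a, 2.29 in 3b and 1.55 in cluster 3 as a whole, and of 1.82 in cluster 4 against the median, so that MYC RNA was higher in cluster 4 than in 3a. PVT1 was at 366, 534, 295 and 635 RNA CPM in clusters 0, 1, 2 and 4, at 779 in 3a and at 2816 in 3b (0.77 and 2.62). CASC11, a long non-coding RNA gene that overlaps the MYC start on the other strand, was at 19.0 RNA CPM in 3b and at most 3.80 in clusters 0, 1, 2, 4 and 3a. MYC, PVT1 and CASC11 were the genes of the segment with 10 or more RNA CPM in any cluster that were past 2-fold above in 3b, 3 of 14, while 11 of the 14 were past 2-fold below the mean. This limit takes in genes through the cluster where they are high, such as CASC11 only through 3b and CASC8 only through cluster 4. No share over genes taken in the same way was computed, so these counts are a description only. Of the 11 below the mean, 4 were below each of clusters 0, 1, 2 and 4, and the other 7 were not. Among the 4, GSDMC had an interval that overlapped that of cluster 1. Against the median of the other clusters 3 of the 14 were above and 6 below. The intervals of MYC and CASC11 overlap, and the sources used here do not state whether strand was used in counting.

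Of all 31 genes of the segment, 5 were past 2-fold above in 3b and 14 below, beside 3.23% and 6.90% of all genes, and in 3a 0 were above and 11 below, beside 3.25% and 5.58%. In cluster 3 as a whole 4 were above and 11 below, beside 2.82% and 5.17%. Against the median 6 were above and 8 below in 3b, beside 4.24% and 3.89%, and 2 and 3 in 3a, beside 4.23% and 2.78%. The levels of genes on either side of the core in 3b varied in their place among the clusters. LRATD2 was at 11.7 RNA CPM in 3b and 49.8 in 3a, GSDMC, a gasdermin gene, at 0.69 and 7.0, and CCDC26 at 2.23 and 4.89. FAM49B, also named CYRIB, which encodes a regulator of the actin cytoskeleton, was at 114 in 3b and 133 in 3a, beside 222, 222, 247 and 508 in clusters 0, 1, 2 and 4. Here 3a and 3b were both below every other cluster. GSDMC in 3b was also below every other cluster, whereas LRATD2 was above cluster 2 (3.19 RNA CPM) and CCDC26 near cluster 1 (2.11). In cluster 4, 15 of the 31 genes were past 2-fold above and 0 below, beside 4.37% and 3.89% of all genes. Cluster 4 led at PCAT1, with 205 RNA CPM against 12.8 to 27.6 in the rest, at CASC8, with 81.7 against 2.14 to 6.69, and at LRATD2, with 176. CASC19 was at 75.5 in cluster 4 and at 80.7 in cluster 1, and at most 7.38 elsewhere. In 3b CASC8, at 6.69, was above clusters 0, 1 and 2, and CASC19, at 7.38, above clusters 0 and 2, so that their low ratios came from the clusters that led.

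**Figure D5:**
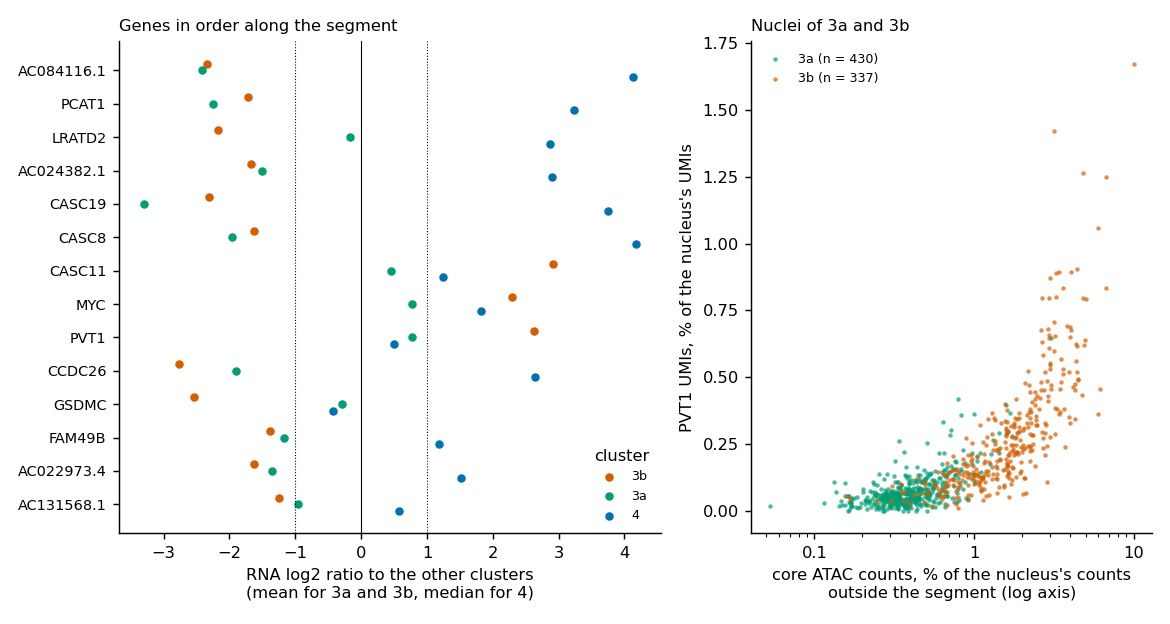
Left, RNA log2 ratio of the 14 genes of the segment with 10 or more RNA CPM in a cluster, in order of their start along the chromosome, for 3b, 3a and cluster 4, with dotted lines at 2-fold. Right, PVT1 UMIs of each nucleus of 3a and 3b in percent against its core ATAC counts in percent of its counts outside the segment, on a log axis. In 3b CASC11, MYC and PVT1 are above 2-fold and the other genes below 0, and PVT1 RNA is higher in nuclei with more core counts.

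The 20% portion gave values from a separate library, with 159 barcodes that were also called in the 80% portion, 12.4% of its own. Its peaks had been called anew, and 202 of them overlapped a member. Summed over these, the log2 ratio was 3.04 in 3b (62 nuclei), 1.26 in 3a (94 nuclei), 2.19 in cluster 3 and 1.21 in cluster 4 (55 nuclei, against the median). In the 79 peaks of the core the ratio was 16.1-fold in 3b and 4.09-fold in 3a, with 76 and 65 past 2-fold above, beside 15.5% and 15.8% of all peaks of that matrix. The step at the far end was at 128270039 in 3a, 3b and cluster 3. At the near end the raised stretch began at 127624939 in 3a and cluster 3, but at 127080509 in 3b, -654.9 kb from the MYC start. The break before the core of 3b was thus not found there. The last peak before the step at the far end was at 59.1 CPM in 3b and 25.7 in 3a, and the next, which began at 128314336, at 9.33 in 3b, 4.58 in 3a and 2.71 to 6.71 elsewhere. MYC RNA was at 756 RNA CPM in 3b and 346 in 3a (2.41 and 1.28 on the log2 scale), and PVT1 RNA at 3250 and 1042. In cluster 4 MYC RNA was at 312 RNA CPM, below 3a, whereas in the 80% portion it was above 3a.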

How the data were processed

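RNA and ATAC of nuclei of the mixed lines were used from the 80% portion, and from the 20% portion as a separate library. The authors deposited counts without normalization, whole-number UMIs on 36601 genes and ATAC counts on peaks, in 1 matrix for each portion that held only barcodes called as cells. Cell Ranger ARC 2.0.0 and GRCh38 are named in the submitters' processing notes and the headers. The gene annotation behind the counts is not given in the sources used. Peaks had been called for each matrix over the nuclei of all lines together. Of the nonzero ATAC values of the 80% matrix 90.1% were even, so intervals were computed on counts halved to fragments. PCR copies without molecular identifiers are not independent, and intervals cover counting error only. A matrix of both portions and the long-read totals were not used, and no column was left without a sample (0 columns).

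Log-normalized UMIs were clustered (Seurat 5.3.0, R 4.3.3), with 2000 variable genes, 30 components, 20 neighbours and the lowest resolution that gave 5 clusters of at least 1% of nuclei (0.05), and cluster 3 was parted at 0.1. Doublet calls (Scrublet, scanpy 1.11.5) were not removed from the main values. Counts were summed per cluster and divided by the total ATAC counts or UMIs of the cluster. Ratios of single peaks and genes used a pseudocount of 1 CPM, and those of sums none. Runs of bins ended after 2 bins in a row under 2-fold. GENCODE v44 gave the genes at each peak, with peaks within 1000 bp of a start taken as gene starts. Nuclei of the 20% portion were given the cluster with the best correlated mean profile, and 98.2% of the nuclei of the 80% portion went back to the cluster they came from. The profiles were made from those same 80% nuclei, so this share does not measure how well the 20% nuclei were placed. The extent and ratio steps were tested on simulated data, in which change points recovered an even stretch once pieces of under 5 peaks were passed over, but could end it early without this.

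The members, the lists of genes and the alternatives were chosen with earlier results of these data known. The peaks named are the 10 with the most counts, the 5 highest and 5 lowest with 10 or more expected counts, those at the starts of MYC, PVT1 and protein-coding genes, and those at the ends, and the genes are those of the segment with 10 or more RNA CPM, a neighbourhood list and a MYC network list. No sequence is printed.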

Additional observations from a re-analysis of the deposited data

How the results depend on the processing

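No paired analysis was possible because each portion had 1 library of each kind and the labels give no replicate numbers. With 1 library the values describe these nuclei, depth limits the low peaks, and where a peak had no count a level of up to 3 counts is allowed. The alternatives left 190 of 241 values within their counting interval, within 1.5 times for counts or within 250 kb for positions. Some of them could not differ: random seeds 2 and 3 gave the values of the main run, and a stricter overlap in the 20% portion kept the same 202 peaks. Cluster 3 was also counted beside its own parts 3a and 3b, so this tally does not measure stability. The division into 3a and 3b, the removal of shared barcodes, the members outside the core, the passing over of pieces of under 5 peaks and the counts below against the median were chosen after seeing the data. The log2 segment ratios of cluster 3, 3a and 3b were 2.25, 1.23 and 3.07 without doublet calls, 2.02, 1.09 and 2.98 with median-of-ratios size factors, and 2.42, 1.47 and 3.27 against the median of the other clusters. They were 1.64, 0.80 and 2.42 without the 10 members with the most counts, 1.93, 0.80 and 2.85 at gene starts and 2.16, 1.24 and 2.99 away from them. Outside the core they were 0.031, -0.27 and 0.40, so that 3a turned to below the other clusters. With 10 or more expected counts the ratio of 3b was 2.99, and 81 members were past 2-fold, 60 of 61 in the core and 21 of 113 outside it. The filter thus left fewer members to count, and no share over all peaks is given for it. At 4-fold 32 of the 341 members were counted in 3a, with no share over all peaks given at this limit, and no 250 kb stretch of 3a was found. The stretch of cluster 3 began at 127600001 with 100 kb bins, at 126000001 with 500 kb bins and at 127618071 with change points, as did that of 3b with change points. With short pieces passed over it still began there in cluster 3. Change points against the median of the other clusters began the stretch at 127038346 in cluster 3, 127655207 in 3a and 127074533 in 3b. Against the median, 27 members of cluster 3, 41 of 3a and 46 of 3b were past 2-fold below in place of 51, 62 and 77, and 3, 3 and 8 segment genes in place of 11, 11 and 14, while 2 genes were above in 3a in place of 0. The share of nuclei over the 95th percentile of the other clusters was 75.8% in cluster 3 and 59.6% in 3a at 2000 counts, and 84.7% and 72.8% without doublet calls. The log2 ratio of MYC RNA in cluster 3 was 1.60 with RNA clusters from all genes, 1.64 without doublet calls and 2.10 against the median, and that of PVT1 1.90 and 1.80 in the last pair of settings. In 3b MYC was at 2.33 and 2.84 and PVT1 at 2.71 and 2.64 there, and in 3a PVT1 was at 0.80 without doublet calls and MYC at 1.32 against the median.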

Other observations

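Of a list of 25 gene names of the wider MYC neighbourhood, 21 were in the feature table, and the list held second names such as CYRIB for FAM49B. In 3b 3 of the 21 genes were past 2-fold above and 9 below, in 3a 1 and 7, in cluster 3 as a whole 3 and 7, and in cluster 4 10 and 2. The shares of all genes were 3.23% above and 6.90% below in 3b, 3.25% and 5.58% in 3a, 2.82% and 5.17% in cluster 3 and 4.37% and 3.89% in cluster 4. Against the median of the other clusters the counts were 3 and 6 in 3b, beside 4.24% and 3.89% of all genes. In 3a they were 3 and 4, beside 4.23% and 2.78%. The single gene above the mean in 3a was ZNF572, at 3.22 RNA CPM. Short of the window, SQLE, an enzyme of sterol synthesis, was at 43.1 RNA CPM in 3b and 57.5 to 84.8 in clusters 0, 1, 2 and 4. Beyond it, ASAP1, which encodes a GTPase-activating protein of the cytoskeleton, was at 148 in 3b and 96.5 in 3a, beside 305, 350, 288 and 756 in clusters 0, 1, 2 and 4.

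Of 12 genes of the MYC network, which encode MYC, its partner MAX and related proteins that bind MAX or MLX, 2 were past 2-fold above in 3b and 0 below, beside 3.23% and 6.90% of all genes. These were MYC and MXI1, a MAX partner, at 51.1 RNA CPM in 3b against 14.1 to 36.8 in clusters 0, 1, 2 and 4. In 3a no gene of this list was past 2-fold of the mean, and in clusters 3 and 4 only MYC was. MAX was at 88.7 in 3b and 77.8 in 3a, against 44.1 to 91.9 in clusters 0, 1, 2 and 4. MYCN and MYCL, the relatives of MYC, were below 1 RNA CPM in all clusters.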
